A study of Mus musculus with 3 samples.

Results

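Chromatin accessibility was examined at 10 genes that control the entry of cells into S phase: the D cyclins Ccnd1, Ccnd2 and Ccnd3, their kinase partners Cdk4 and Cdk6, the kinase inhibitors Cdkn1a, Cdkn1b and Cdkn2c, and the transcription factors E2f2 and E2f4. They were chosen by symbol and function from 21851 protein-coding genes of the GENCODE annotation of mm10, and all 10 symbols were found there. Earlier results of these data were known when the choice was made. For each gene, peaks and footprints were taken from the gene body and 50 kb on either side. The assay was DNase-seq, which reads the ends left where DNase I has cut open DNA, so that a peak marks accessible chromatin and a footprint marks a short stretch within it that was cut less. The tissue was the liver of embryos at 13.5 days from mice of strain C57BL/6N,129 that the labels describe as wild type and as carrying a single copy of the A20 YAC, a yeast artificial chromosome. There was 1 group of 3 libraries, numbered as biological replicates 1, 2 and 3, with no treatment and no control. The labels name 1 donor for the 3 libraries and a biosample for each, so the spread between libraries may be technical.

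D-type cyclins bind CDK4 or CDK6, and the active kinase phosphorylates the retinoblastoma protein and its relatives. Phosphorylation releases E2F factors, which switch on genes of DNA replication, while INK4 inhibitors such as the product of Cdkn2c block CDK4 and CDK6 and CIP/KIP inhibitors such as those of Cdkn1a and Cdkn1b act on a wider range of cyclin kinases. The fetal liver at this stage is the main site of red cell formation, and its erythroid precursors divide fast before they leave the cell cycle. In mouse, Ccnd3 is known to set the number of divisions of these precursors, and E2f2 and E2f4 are known to be required for normal red cell maturation.

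The libraries held 34369, 122281 and 60862 peaks and 89836, 342756 and 156638 footprints in replicates 1, 2 and 3, and their read totals are unknown. Promoters were taken as windows reaching 1000 bp to both sides of each transcription start site (TSS) of a gene. Promoter peaks were found at 8, 9 and 9 of 9 erythroid marker genes, at 4, 7 and 6 of 8 hepatoblast markers, at 1, 2 and 1 of 4 endothelial markers and at 3 of 3 mesenchymal markers in each library. Alb, Cdh5 and Stab2 had no promoter peak in any library. The median percentile of the erythroid markers was 60.2, 76.2 and 80.4 in replicates 1, 2 and 3, and that of the hepatoblast markers was 24.96, 47.2 and 51.0. In bulk tissue, fewer cells with an open site and less opening per cell cannot be told apart.

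Promoters of the 10 genes had a peak in 8, 10 and 10 cases in replicates 1, 2 and 3. The shares of all protein-coding genes were 54%, 67.3% and 56.4%. In all 3 libraries a peak was present at 8 of the 10 promoters, against 51.4% of all protein-coding genes. The 2 exceptions were Ccnd1 and E2f2, which had none in replicate 1. Promoter signal is the highest peak signal in the window, and since signal was scaled within each library it is compared as a percentile, the share of protein-coding genes with a lower value. The median percentile of the 10 genes was 66.3, 67.3 and 67.3, and over all protein-coding genes it was 49.91, 49.96 and 49.89. From high to low the mean percentiles ran Cdk4, Ccnd3, Cdkn2c, E2f4, Cdkn1b, Cdk6, Cdkn1a, Ccnd2, E2f2 and Ccnd1. Cdk4 and Ccnd3 had no overlap of their library values with any other of the 10 genes. Neighbours further down overlapped, among them Cdkn2c, E2f4 and Cdkn1b, and Cdk6 and Cdkn1a.

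**Figure D1:**
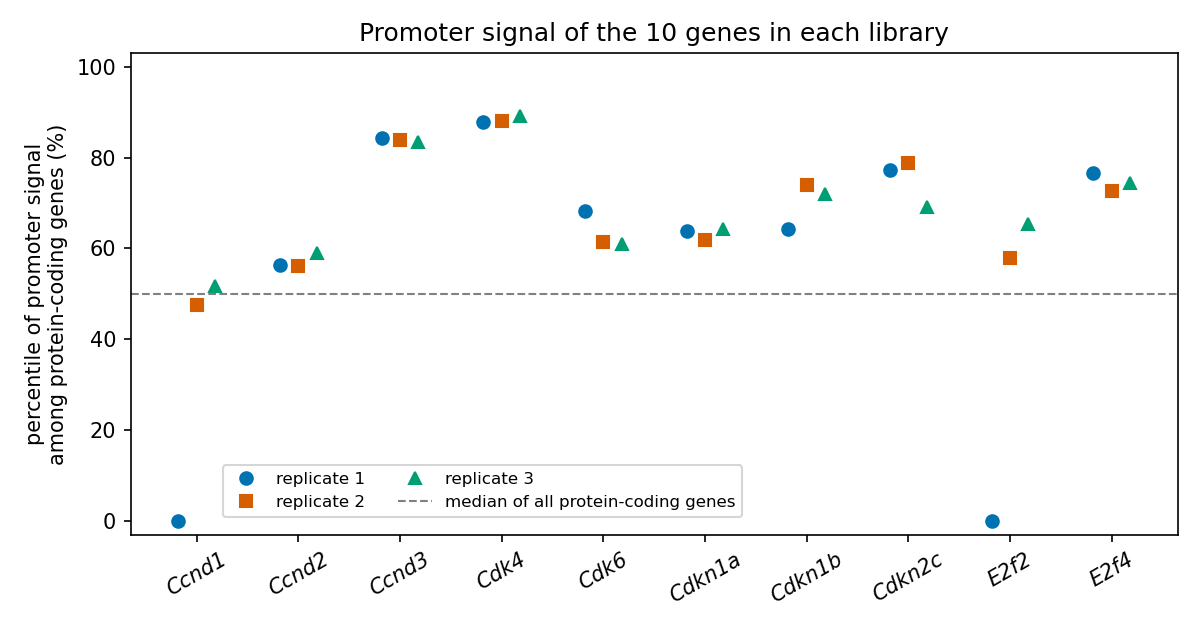
Percentile of promoter signal among protein-coding genes (y axis, %) for each of the 10 genes (x axis) in the 3 libraries (symbols), with the median of all protein-coding genes as a dashed line. Cdk4 and Ccnd3 lie above 80 in every library, and Ccnd1 and E2f2 are at 0 in replicate 1, where no promoter peak was listed.

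Taking the best of all TSSs of each gene, Ccnd3 was the D cyclin with the strongest promoter, and it had the richest locus. Its promoter signal was 4.39, 11.9 and 8.23 in replicates 1, 2 and 3, and its percentile was 83.9 ± 0.413 (mean ± SD, n = 3). The signal did not sit at the first start of the gene. Around the 4 TSSs at the 5′ end it was 0, 1.71 and 0.651, whereas around an internal TSS 88419 bp downstream it was 4.39, 11.9 and 7.60. A further TSS, 91017 bp downstream, had 1.94, 8.78 and 8.23. Thus the 5′ end had no peak in replicate 1, and both internal starts had one in every library. With the most upstream TSS alone, the mean percentile of Ccnd3 was 36.4 and that of Ccnd2 was 58.7. By that measure Ccnd2 had the higher signal in each library, so the order of these genes depended on the internal starts.

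A region is the merged span of overlapping or touching peaks of the libraries, and it is called shared where each of the 3 libraries has a peak in it. Shared regions were ranked within a library among all 25817 shared regions, so that the same regions are compared in each library. The region of the Ccnd3 locus with the highest mean percentile lay in an intron, 6.2 kb downstream of the first TSS (chr17:47511161-47511440). Its signal was 7.27, 20.1 and 10.8, and its percentile among shared regions was 97.9, 96.1 and 90.3. The 5 other shared intronic regions of Ccnd3, at 3.1, 16.7, 18.4, 31 and 93.3 kb, had percentiles from 37.9 to 62.5 in replicate 1, from 54.7 to 77.9 in replicate 2 and from 57.4 to 91.3 in replicate 3. In replicate 3 the region at 31 kb, at 91.3, was above the one at 6.2 kb. The sequences below carry the internal promoter up to its TSS and 2 of these intronic regions, and capitals mark bases that lay in a footprint in all 3 libraries.
Ccnd3 internal promoter, chr17:47593344-47593469, plus strand: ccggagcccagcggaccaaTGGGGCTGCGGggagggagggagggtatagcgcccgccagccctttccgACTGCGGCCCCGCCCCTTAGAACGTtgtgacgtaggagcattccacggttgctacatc
Ccnd3 intron, 6.2 kb, chr17:47511204-47511403, plus strand: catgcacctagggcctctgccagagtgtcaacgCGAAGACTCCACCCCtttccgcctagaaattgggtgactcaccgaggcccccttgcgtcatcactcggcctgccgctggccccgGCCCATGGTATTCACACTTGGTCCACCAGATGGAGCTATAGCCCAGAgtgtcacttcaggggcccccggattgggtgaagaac
Ccnd3 intron, 31 kb, chr17:47535917-47536116, plus strand: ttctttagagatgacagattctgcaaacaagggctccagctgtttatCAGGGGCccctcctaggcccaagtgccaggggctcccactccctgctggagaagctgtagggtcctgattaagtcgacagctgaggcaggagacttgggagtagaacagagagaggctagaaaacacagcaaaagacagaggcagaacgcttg
Capitals of the internal promoter cover an SP box, CCGCCC on this strand, and another run of them begins at the last letter of a CCAAT box. In the region at 6.2 kb they cover a long run that holds the E-box letters CAGATG, and in the region at 31 kb they begin within TTATCA, which is the GATA motif read on the opposite strand. The GATA motif at 31 kb and the E-box at 6.2 kb lay within 5 bp of a footprint in all 3 libraries.

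With all TSSs counted, Ccnd1 and Ccnd2 had weaker promoters than Ccnd3 in each library. Ccnd1 had a promoter signal of 0, 0.768 and 0.685, with percentiles of 0, 47.5 and 51.8, and in replicate 1 no position of its promoter was listed at a false discovery rate of at most 0.05. Ccnd2 had 1.25, 2.09 and 1.60, and its percentile was 57.2 ± 1.63 (SD, n = 3). Ccnd2 was therefore open in every library, and Ccnd1 in replicates 2 and 3. The Ccnd1 body held 1 shared region, in an intron 2.2 kb downstream of the TSS (chr7:144937541-144937760), at percentiles of 59.4, 37.6 and 37.8 among shared regions. It is the nearest region to the Ccnd1 start that all 3 libraries had, and with a promoter window of 2500 bp it set the Ccnd1 value in replicate 1. In replicates 2 and 3 that value came from a region 1.8 kb upstream of the TSS, with signals of 1.82 and 1.72.
Ccnd1 intron, chr7:144937564-144937763, plus strand: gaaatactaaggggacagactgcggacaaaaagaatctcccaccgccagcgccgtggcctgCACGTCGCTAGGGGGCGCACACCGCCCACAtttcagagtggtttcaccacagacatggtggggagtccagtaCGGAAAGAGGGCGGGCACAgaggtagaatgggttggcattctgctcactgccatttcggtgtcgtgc
Its capitals cover 49 bp, and both of its SP boxes, CCGCCC and GGGCGG, lay in them. The strongest shared region of the Ccnd1 locus was at the promoters of LTO1 and Bc1, at 68.1, 73.6 and 75.3. Ccnd2 had 2 shared regions at its own promoter, 1 in an intron at 3.2 kb and 1 at the promoter of its neighbour Tigar. The Tigar region was the strongest of the 4 in mean percentile, at 70.7, 63.8 and 59.7. The intronic region of Ccnd2 was at 58.4, 41.3 and 33.1, and it held a CTCF motif within a footprint in all 3 libraries.

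Cdk4, the kinase partner of D cyclins, had the highest promoter percentile of the 10 genes, 88.3 ± 0.709 (SD, n = 3). Its signal was 4.89, 14.3 and 11.2 in replicates 1, 2 and 3. The Cdk4 region (chr10:127063281-127063660) was at 90.0, 90.6 and 91.0 among shared regions, and no shared region lay in a Cdk4 intron. The sequence upstream of the TSS is given because it shows a footprint that all 3 libraries had.
Cdk4 promoter, chr10:127063361-127063533, plus strand: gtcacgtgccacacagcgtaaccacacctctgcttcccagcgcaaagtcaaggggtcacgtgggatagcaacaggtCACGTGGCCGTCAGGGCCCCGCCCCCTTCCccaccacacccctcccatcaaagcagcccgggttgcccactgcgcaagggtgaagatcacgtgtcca
The capitals form a single run of 30 bp that holds an SP box, CCGCCC. The run opens with the letters CACGTG, which were not among the motifs searched. Over the whole region 51 bp lay in a footprint in all 3 libraries, and 2 further SP boxes within 5 bp of such footprints lay downstream of the part printed. The other 4 shared regions of the locus included the promoters of Tsfm, of Mettl1 and Eef1akmt3, and of Tspan31.

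Cdk6, the other D cyclin kinase, had a promoter signal of 2.49, 3.54 and 1.94 and a percentile of 63.5 ± 4.06 (SD, n = 3). Its 3 shared promoter regions were at percentiles from 37.9 to 69.6 in replicate 1, from 26.9 to 58.4 in replicate 2 and from 12.1 to 53.8 in replicate 3. Cdk6 ranked above Cdk4 in no library. The Cdk6 locus is the longest, 289524 bp, and held 5 shared regions, none in an intron. In replicates 2 and 3 alone it held 12 regions found in both, 6 of them in introns, so the count rested on replicate 1. Its density of 1.73 shared regions per 100 kb was at the 44.3 percentile of the loci of protein-coding genes, and the median locus had 1.98. The strongest region of the locus was the promoter of Fam133b, at 96.7, 87.5 and 79.6. Of the Cdk6 body, 24.0% consisted of 32 bp words found again elsewhere in the genome, more than in any other of the 10 genes, and its part in the low density was not tested.

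Among the inhibitors, Cdkn2c, an INK4 gene, had the highest mean promoter percentile. Its signal was 3.49, 9.61 and 3.63, and its percentile was 75.1 ± 5.16 (SD, n = 3). Its main region (chr4:109666681-109667180) was at 80.2, 82.3 and 67.8 among shared regions, next to the promoter of Faf1, which was at 95.8, 96.1 and 94.7. Cdkn1b, a CIP/KIP inhibitor linked to cell cycle exit, had a promoter signal of 2.05, 7.67 and 4.33 and a percentile of 70.1 ± 5.10 (SD, n = 3). Its promoter region (chr6:134920221-134920780) was at 63.0, 77.2 and 71.7. The values of Cdkn2c and Cdkn1b overlapped between libraries. The strongest region of the Cdkn1b locus, 22.5 kb upstream at the promoters of Gpr19 and 2810454H06Rik, was at 96.7, 87.7 and 88.1.

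Cdkn1a, the CIP/KIP inhibitor known for its response to DNA damage, had a promoter signal of 2.00, 3.70 and 2.57 and a percentile of 63.4 ± 1.25 (SD, n = 3). This value came from a pair of TSSs 2790 bp downstream of the first. At the first TSS the signal was 0.258, 0.219 and 0.215, and at the last TSS, 6921 bp downstream, it was 0.470, 0.469 and 0.256. All 3 sites were thus listed in every library, with the middle site the highest each time.
Cdkn1a second start, chr17:29093604-29093768, plus strand: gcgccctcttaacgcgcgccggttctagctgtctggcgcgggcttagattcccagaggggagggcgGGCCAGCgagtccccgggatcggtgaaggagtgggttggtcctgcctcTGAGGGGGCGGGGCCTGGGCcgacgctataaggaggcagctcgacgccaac
The sequence is shown because it runs up to the first TSS of the middle site, the one with the highest signal. Its 2 SP boxes, each GGGCGG, lay within 5 bp of a footprint in all 3 libraries. The strongest region of the Cdkn1a locus lay 4.6 kb downstream of the first TSS (chr17:29095441-29095700), within 1000 bp of a TSS of the gene AC167363.2, at 89.8, 72.5 and 62.2 among shared regions.

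Much of the rest of the Cdkn1a body was covered by peaks of low signal. Peaks covered 41.6%, 52.0% and 47.4% of the body in replicates 1, 2 and 3, and the median over all protein-coding genes was 0.225%, 1.05% and 0.465%. These shares put Cdkn1a at the 99.7, 99.2 and 99.8 percentiles. Positions listed at a false discovery rate of at most 0.05 made up 66.3%, 83.9% and 76.1% of the body, so the covering was listed in each library although its signal was low. In replicates 1 and 3, 12 of 17 and 15 of 19 peaks over the body were below the 5th percentile of signal of their library, and in replicate 2 it was 0 of 13. In each of replicates 1 and 3, as many such peaks were found in 6 protein-coding genes, Cdkn1a included. Of the 9 shared regions at Cdkn1a promoters and introns, 7 had a percentile of at most 2.11 in every library. The peaks of the Cdkn1a locus had 3.36, 6.18 and 2.78 footprints per kb, and the peaks of the whole library had 11.3, 9.84 and 11.8. Words of 32 bp found elsewhere in the genome made up 1.86% of the body. Without the Cdkn1a locus the 10 loci had 72 shared regions instead of 83, and 12.4 footprints per kb of peak instead of 10.97. What these low peaks arise from was not tested.

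**Figure D2:**
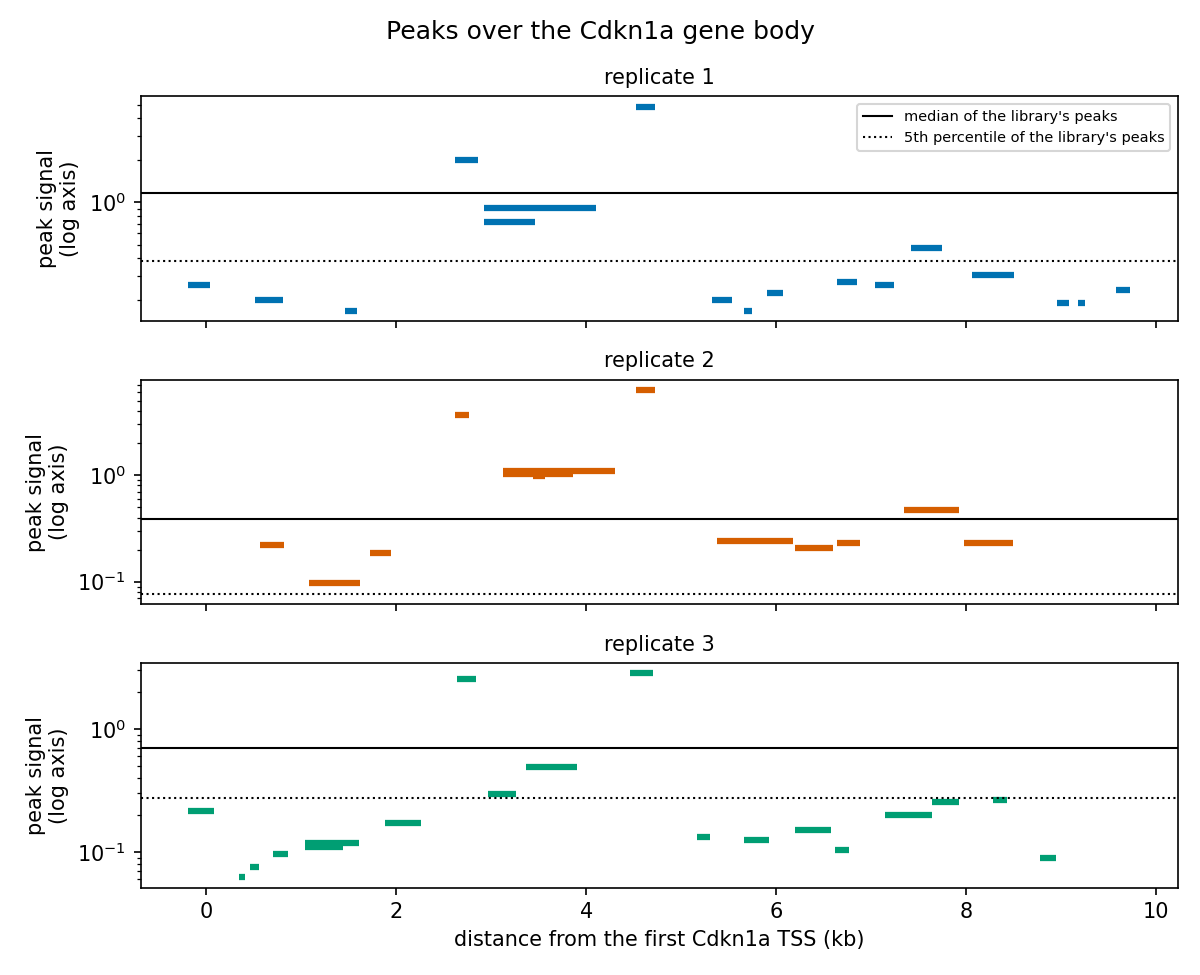
Peaks over the Cdkn1a body by distance from its first TSS (x axis, kb) and signal (y axis, log scale) in replicates 1, 2 and 3, with each bar spanning the peak's width and lines at the median (solid) and the 5th percentile (dotted) of the library's peaks. The peaks near 2.7 and 4.6 kb stand above the library's median in all 3 libraries, and 12 peaks in replicate 1 and 15 in replicate 3 lie below the 5th percentile.

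The E2F genes differed in where their open sites lay. E2f4, which encodes an E2F factor that acts mainly as a repressor in resting cells, had a promoter signal of 3.41, 7.20 and 5.01 and a percentile of 74.5 ± 2.03 (SD, n = 3). E2f2, which encodes an activator E2F, had a promoter signal of 0, 2.56 and 2.80 and percentiles of 0, 57.9 and 65.4. In replicate 1 no E2f2 promoter peak was listed, and the lowest false discovery rate listed there was 0.0152. The CpG content of the E2f2 promoter was high: its ratio of observed to expected CpG was 0.999, above 89.0% of protein-coding genes.

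E2f2 had no shared region at its promoter and 5 in its introns, at 2.6, 5.7, 7.7, 8.2 and 17.6 kb from its TSS. Among shared regions the one at 5.7 kb (chr4:136177941-136178240) was at 66.4, 84.2 and 91.2. Those at 2.6, 8.2 and 17.6 kb were at 49.4 to 60.9 in replicate 1, 72.9 to 76.4 in replicate 2 and 78.2 to 88.7 in replicate 3. The region at 7.7 kb went the other way, at 83.2, 73.5 and 70.9. All 5 were above the median of shared regions away from promoters, which was 33.0, 30.4 and 33.5.
E2f2 intron, 5.7 kb, chr4:136177997-136178196, plus strand: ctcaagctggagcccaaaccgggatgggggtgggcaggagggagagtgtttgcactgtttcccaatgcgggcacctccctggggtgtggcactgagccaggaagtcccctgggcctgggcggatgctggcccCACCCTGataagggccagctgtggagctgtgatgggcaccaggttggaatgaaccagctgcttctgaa
The sequence is shown because 3 motif kinds lie close together in it: a CACCC box, CCCCACCC, followed at once by the GATA motif TGATAA and, a few bases on, by the E-box CAGCTG. The CACCC box and the GATA motif lay within 5 bp of a footprint in all 3 libraries, and the E-box in none. The promoter of Asap3, 33.9 kb from the E2f2 TSS, was at 81.4, 76.9 and 80.9, and a region 8.7 kb upstream of E2f2 was at 69.4, 64.6 and 57.9.

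The E2f4 promoter region (chr8:105297541-105297760) was at 79.6, 75.6 and 75.0 among shared regions. A region 2.5 kb into the gene, centred in an intron and reaching into a coding exon (chr8:105300041-105300280), was at 47.8, 79.1 and 88.4. The promoter was thus the higher of the 2 in replicate 1 and the intronic region in replicates 2 and 3. The E2f4 locus had 13.0 shared regions per 100 kb, at the 99.1 percentile of loci, and it also holds the TSSs of 12 other protein-coding genes. Of its 14 shared regions 8 were at promoters of other genes, led by that of Tmem208 and Lrrc29 at 94.5, 94.3 and 94.5.

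**Figure D3:**
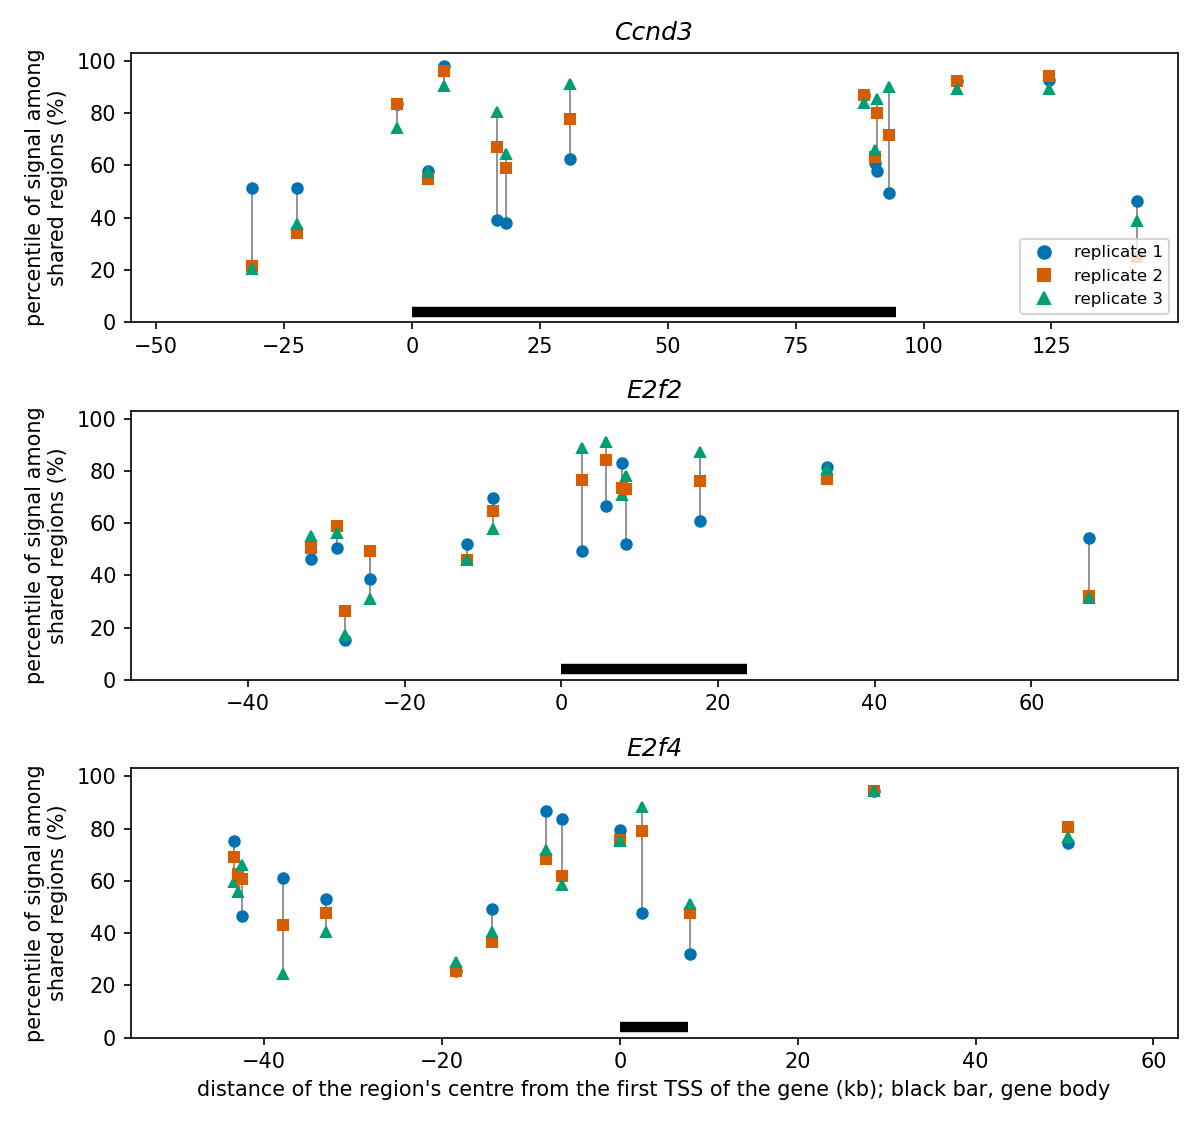
Shared regions of the Ccnd3, E2f2 and E2f4 loci by distance from the first TSS (x axis, kb) and percentile of signal among all 25817 shared regions (y axis, %) in each library (symbols), with grey lines from the lowest to the highest library and a black bar for the gene body. Most regions inside the 3 genes and away from their promoters have replicate 1 below replicates 2 and 3, with exceptions at 3.1 and 6.2 kb in Ccnd3 and at 7.7 kb in E2f2.

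Over the 10 loci the libraries had 108, 314 and 177 peaks, which formed 337 regions. Of these 83 were shared, against 19.8% of the 130485 regions of the whole genome, 58 were in 2 libraries and 196 in 1. By position 20 of the 83 lay at promoters of the 10 genes, 25 at promoters of other genes, 16 in introns and 22 outside, going by the centre of the region. Density was highest at E2f4, E2f2 and Cdkn1a, with 13.0, 10.5 and 10.02 shared regions per 100 kb, and lowest at Cdk6. The place of Cdkn1a rested on its low peaks: taking the same number of top peaks from every library, it had 3 shared regions instead of 11, whereas E2f4 had 14 and E2f2 12. Ccnd3 had the most shared regions, 15, at 7.71 per 100 kb and the 92.5 percentile of loci. Replicate 1, with the fewest peaks, decided many of these counts: in replicates 2 and 3 alone 135 regions of the 10 loci were found in both. Counts went up by over 1.5 times at Ccnd3 (31), E2f2 (20), Cdkn1a (17), Cdk6 (12), Ccnd1 (8), Ccnd2 (7) and Cdkn2c (7), and by less at E2f4 (17), Cdkn1b (10) and Cdk4 (6).

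**Figure D4:**
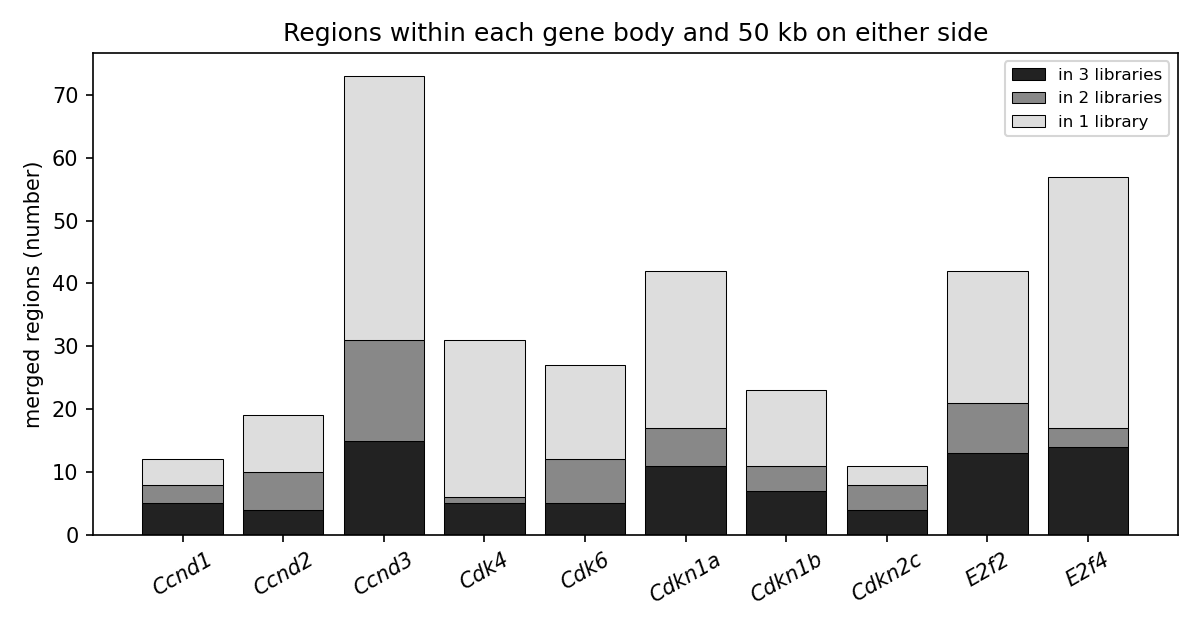
Number of merged regions (y axis) within the body of each gene and 50 kb on either side (x axis), divided by whether 3, 2 or 1 of the libraries had a peak there. Ccnd3, E2f4, E2f2 and Cdkn1a have the most shared regions, with 15, 14, 13 and 11.

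At the median, the shared intronic regions of the 10 genes ranked lower in replicate 1 than in the other libraries. Of the 16, 6 lay in Ccnd3, 5 in E2f2, 2 in Cdkn1a and 1 each in Ccnd1, Ccnd2 and E2f4. The 16 shared intronic regions had median percentiles of 54.9, 72.3 and 79.3 in replicates 1, 2 and 3, and the 11005 shared regions away from promoters had 33.0, 30.4 and 33.5. In replicate 1, 9 of the 16 were at least 10 points below their mean of replicates 2 and 3, against 24.7% of shared regions away from promoters. The 9 were 4 regions of Ccnd3, 4 of E2f2 and 1 of E2f4. Without Cdkn1a the medians of the 14 remaining introns were 58.2, 73.2 and 83.7. At the 20 shared promoter regions the medians were 48.6, 45.2 and 45.3, and without the 7 of Cdkn1a they were 60.9, 63.3 and 65.7, lowest in replicate 1. The median difference, replicate 1 minus the mean of replicates 2 and 3, was -21.0 points for the 16 introns, 0.271 for the 20 promoter regions and 1.67 for the 13 without Cdkn1a. At least 10 points lower in replicate 1 were 2 of the 20, against 15% of all shared promoter regions. Without Cdkn1a, most of whose regions were too low in every library to differ by 10 points, it was 2 of 13, or 15.4%. The promoters of Ccnd1 and E2f2 are in neither count, since without a peak in replicate 1 they hold no shared region, so introns and promoters were not compared over the same genes.

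**Figure D5:**
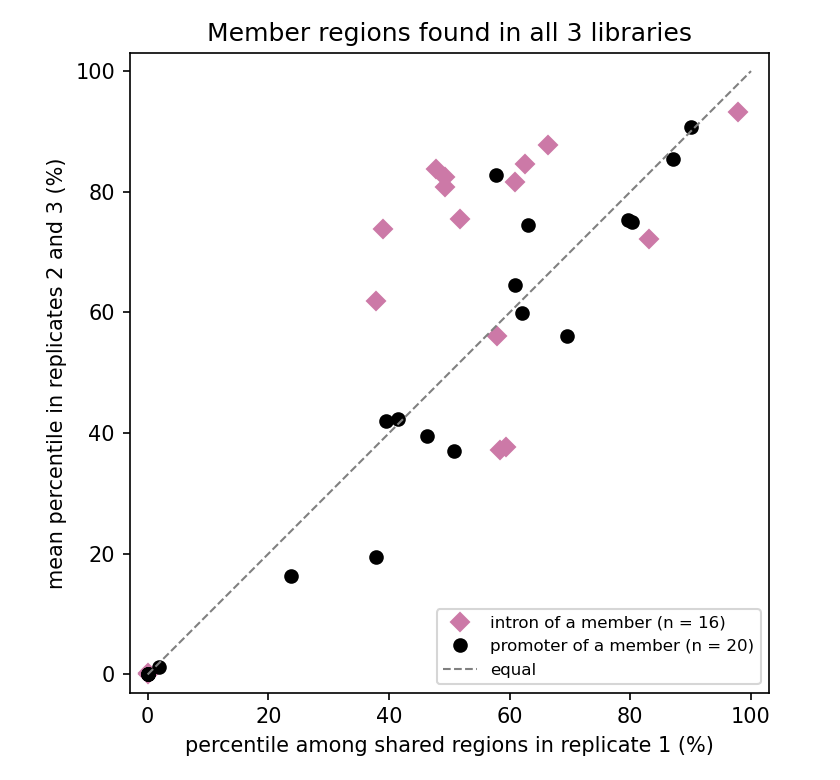
Percentile among shared regions in replicate 1 (x axis, %) against the mean of replicates 2 and 3 (y axis, %) for the 16 shared intronic regions (diamonds) and the 20 shared promoter regions (circles) of the 10 genes, with a dashed line of equal values. Of the intronic regions 9 lie at least 10 points above the line, and the promoters lie on both sides of it. The points nearest 0 are low regions of Cdkn1a.

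The same difference is given here for marker loci and motifs. Shared regions away from promoters in the loci of the 9 erythroid markers had a median difference of -9.96 points (replicate 1 minus the mean of replicates 2 and 3, n = 26 regions), and 13 of the 26 were at least 10 points lower in replicate 1. In the loci of hepatoblast markers the median of 7 regions was 12.5 points higher in replicate 1, and in those of endothelial markers the median of 5 regions was 8.62 points higher. In the loci of mesenchymal markers the median of 4 regions was -6.38 points, and 2 of the 4 were at least 10 points lower. In the bodies of 25 other genes of the pathway, described further on, the median of 5 regions was -33.1 points, and 3 of the 5 were at least 10 points lower. Of all shared regions away from promoters, the 3366 with a GATA motif had a median difference of -11.9 points, and the 7639 without one had 6.60. With and without a CACCC box the medians were -5.98 and 4.16 points, and with and without an E-box they were 1.81 and 4.01. The part of erythroid cell share or of GATA motif content in the ranks of the Ccnd3, E2f2 and E2f4 introns was not tested.

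Motifs were searched on both strands in the 200 bp at the centre of each shared region, and a match is a description of letters only. Only exact matches were counted, so a sequence with a mismatch to a motif, such as that of CTCF, was not. The letters named in a printed footprint need not be the only motif there. A GATA motif, the letters GATA after A or T and before A or G, was in 8 of the 16 intronic regions, and in 30.6% of all shared regions away from promoters. Over all 38 shared regions of the 10 loci away from promoters it was in 12, or 31.6%, close to that share. An E-box (CAGATG or CAGCTG) was in 10 of the 16, against 30.7%, and a CACCC box (CCACACCC, CCGCACCC or CCCCACCC) in 6 of the 16, against 10.4%. Over the 38 regions the E-box was in 17 and the CACCC box in 7. An SP box (GGGCGG) was in 6 of the 16, against 17.5%. Intronic regions of Ccnd3, E2f2 and E2f4 supplied 7 of the 8 with a GATA motif, and the remaining region was a low one of Cdkn1a. An E2F motif (TTTCCCGC, TTTGGCGC, TTTCGCGC or TTTGCCGC) was in 0 of the 20 shared promoter regions of the 10 genes and in 3.25% of all shared promoter regions. Of the 20, 7 were of Cdkn1a and 0 of Ccnd1 or E2f2, so the promoters of Ccnd1 and E2f2 were not searched for any motif. At promoters the SP box was in 8 of the 20, against 60.7%, and without Cdkn1a in 7 of 13. A CCAAT box was in 3 of the 20, against 29.2%, and an ETS motif (CCGGAAG) in 0, against 14%. The other motifs were in at most 1 of the 20 promoter and 1 of the 16 intronic regions: STAT (TTCNNNGAA, 3.54% of promoter regions), CRE (TGACGTCA, 2.9%), NRF1 (by name, 1.8%), FOXO (TGTTTAC, 1.39%), CTCF (by name, 1.09%) and the p53 element (by name), which 0 of all shared promoter regions held. The p53 element was searched as 1 fixed pattern with no spacer and no mismatch, and 1 of the 11005 shared regions away from promoters held it. Its absence therefore does not show that p53 sites are lacking. Matches of 1 gene share a locus, and with 16 and 20 regions a single match moves these shares by several percent.

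Promoter CpG content divided the 10 genes unevenly. The ratio of observed to expected CpG was taken over 300 bp, mostly upstream of the TSS, at the TSS with the highest value. It was at least 0.6 at 7 of the 10 genes. Among these 7, 6 had a promoter peak in all 3 libraries, against 82.5% of such genes in the genome. Ccnd1, Ccnd2 and Cdkn2c were below 0.6, at 0.472, 0.543 and 0.553. Of these, Ccnd2 and Cdkn2c had a peak in all 3 libraries, a state found in 17.4% of protein-coding genes below that ratio.

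Footprints in peaks of the 10 loci numbered 254, 852 and 424 in replicates 1, 2 and 3. That was 10.2, 11.3 and 11.4 per kb of peak, against 11.3, 9.84 and 11.8 for all peaks of the library. The highest mean density was at E2f4, 13.6 ± 1.88, close to Ccnd3 with 13.4 ± 0.964 and Cdkn1b with 13.3 ± 1.87 (SD, n = 3 each). These genes did not differ beyond their spread, and Cdkn1a was the lowest at 4.11 ± 1.82 (SD, n = 3).

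The 10 genes were set beside 25 others of the pathway, which encode cyclins E and A, the retinoblastoma family, other E2F factors, other inhibitors and the activating kinase. A promoter peak in all 3 libraries was present at 8 of the 10 and at 24 of the 25. The median percentile was 66.9 ± 0.595 for the 10 genes and 76.0 ± 0.671 for the 25 (SD over 3 libraries), a difference for which no test was made. The highest of the 25 were Cdkn2d, an INK4 inhibitor, at 99.4 ± 0.819, E2f8, an E2F repressor, at 96.7 ± 2.78, and Ccna2, the S phase cyclin, at 96.5 ± 2.49 (SD, n = 3 each). The lowest were Cdkn2a, the INK4 and ARF gene, at 14.01 ± 24.3, E2f6 at 58.8 ± 2.38 and Mnat1, a part of the CDK-activating kinase, at 60.8 ± 4.14. Cdkn2a had a promoter peak in replicate 2 alone. The mean percentile of Cdkn2d was above that of each of the 10 genes, Cdkn2c included.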

How the data were processed

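DNase-seq values of 3 fetal liver libraries, 1 group, were read from the deposited files, all in mm10 per the labels. Per the text listing that accompanies each library, the authors called its peaks separately. The sources used here do not give the caller, the aligner or the read totals. The deposited peak signal was scaled per library by the authors, by a method that the labels do not state, so it was compared only as percentiles within a library. The deposited q-values (false discovery rates, a kind of adjusted p-value) are listed for intervals at or under 0.05 alone. Footprint rows carry the constant 0.01, a deposited score with no stated meaning. Of 2 deposited peak lists per library the one with more rows was used, and the other was an alternative.

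Genes and TSSs came from GENCODE M21 (basic set), and sequence from GRCm38.p6 by coordinates; all 217512 peaks lay within its chromosomes. A peak belonged to a window where it overlapped it by at least 1 bp, and windows of neighbouring genes can overlap. Printed sequences are the 200 bp windows at region centres without annotated UTR bases. Scripts used Python 3.11.15, numpy 2.4.6 and bedtools 2.31.1, and were tested on simulated peaks and sequences.

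With 1 group there was no contrast and no test: values are given per library or as mean ± SD over 3. The members, lists and motifs were chosen with earlier results of these data known. All 10 genes were named; of the 25 others, the 3 highest and 3 lowest; of regions, the promoter regions and the 3 others with the best worst rank of each locus. The other intronic regions, the ranking among shared regions, the CpG classes and the repeated 32 bp words were added after values were seen. Alternatives were the other peak list, equal numbers (34369) of the strongest peaks, overlap by 50% of a peak or region, 2500 bp windows, the most upstream TSS, the smallest false discovery rate, 10000 and 100000 bp flanks, 2 footprint filters, leaving out each replicate and, added after seeing the data, leaving out the Cdkn1a locus.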

Additional observations from a re-analysis of the deposited data

How the results depend on the processing

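The count of genes with a promoter peak in all 3 libraries was 8, from 7 (most upstream TSS) to 10 (2500 bp windows), and 8 to 10 with a replicate left out. The median percentile, 66.9, was 71.4 with 2500 bp windows, 62.4 with the most upstream TSS and 67.6 by the smallest false discovery rate; it was 66.8 to 67.3 with a replicate left out. The 83 shared regions became 50 with 10000 bp flanks, 112 with 100000 bp flanks, 61 in the stricter list and 69 with equal numbers of peaks; leaving out a replicate gave 85 to 135, the highest without replicate 1. Footprints per kb of peak, 10.97, were 12.1 inside peaks of the stricter list, 5.88 for footprints of at least 10 bp, 12.4 without the Cdkn1a locus, and 10.7 to 11.3 with a replicate left out. The cause of these shifts was not tested. For single genes, 80 of 90 percentiles moved by less than 1 SD, but the SDs of Ccnd1 and E2f2, 28.7 and 35.8, hold a 0 in replicate 1. With 2500 bp windows Ccnd1 was at 57.9 instead of 33.1 and E2f2 at 71.9 instead of 41.1. The E2f2 value then came from its intronic region at 2.6 kb in each library. The Ccnd1 value came from its intronic region at 2.2 kb in replicate 1, and from 1.8 kb upstream in replicates 2 and 3. The count of 10 genes with these windows thus took in intronic peaks in replicate 1. Without replicate 1, Ccnd1 and E2f2 were at 49.6 and 61.6. Cdkn1a, at 63.4, was at 43.3 with the most upstream TSS and at 92.0 by the smallest false discovery rate. Further, 61 of 80 counts of shared regions stayed within 1.5 times. No paired analysis was possible because there is 1 group. With 3 libraries and unknown read totals, a promoter without a listed peak, as for Ccnd1 and E2f2 in replicate 1, is not shown to be closed.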

Other observations

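The main Cdkn2c promoter region was at 76.8 ± 7.82 among shared regions, and the promoter of its neighbour Faf1 at 95.5 ± 0.738. The Cdkn1b promoter was at 70.6 ± 7.12, and the region at Gpr19 and 2810454H06Rik at 90.8 ± 5.09. The strongest Cdk6 promoter region was at 60.6 ± 8.10, and the Fam133b promoter at 87.9 ± 8.58. The E2f4 promoter was at 76.7 ± 2.48, and the region at Tmem208 and Lrrc29 at 94.5 ± 0.113 (SD, n = 3 throughout). In these 4 loci a neighbour thus had the stronger promoter in each library. The same held at Ccnd2 for the Tigar promoter, at 64.8 ± 5.56. It held at Ccnd3 for the region at Bysl, Gm20517 and Med20, at 91.3 ± 1.64. At Cdkn1a the region at 4.6 kb, within 1000 bp of a TSS of AC167363.2, was above its promoter regions in each library, at 74.8 ± 13.9. Cdk4 was the other way, at 90.5 ± 0.469, with the Tsfm promoter next at 71.0 ± 5.45. Ccnd1 and E2f2 had no shared region at their own promoters.

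The promoter of Id3, which encodes an inhibitor of basic helix-loop-helix factors, lies in the E2f2 locus 28.6 kb upstream of the E2f2 TSS and was at 50.5, 59.0 and 56.3 in replicates 1, 2 and 3. A region outside any gene of the 10, 124.5 kb from the first Ccnd3 TSS and 1050 bp from a TSS of Usp49, was at 92.8, 94.3 and 89.3, within 10 points of the strongest Ccnd3 intronic region in each library.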
